A study of Mus musculus with 48 samples.

Results

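The 9 genes described here encode scaffold proteins of the postsynaptic density, the protein sheet under the membrane of excitatory synapses. They are the 4 membrane-associated guanylate kinases Dlg1, Dlg2, Dlg3 and Dlg4, the linker Dlgap1, the master scaffolds Shank1, Shank2 and Shank3, and the adaptor Homer1. They were chosen by name from the 55357 genes of a mouse count table, each matched 1 row, and all 9 were among the 21390 genes with enough counts to be tested. The table holds 48 RNA-seq libraries of microdissected dorsal dentate gyrus from 24 mice. The mice were C57BL/6J animals, 6 to 8 weeks old in the series record (the study's methods give an older range), that received kainate, an agonist of glutamate receptors, or saline into the hippocampus of 1 side. The dentate gyrus of the injected side is called the epileptogenic zone (EZ) and that of the opposite side the peri-ictal zone (PIZ). Both were taken from every mouse at day 3, day 7 or day 14, which gives 12 groups of 4 libraries. Each main comparison is of kainate with saline on the same side and day. Every kainate mouse had a behavioural seizure after the injection, per the methods of the study. Sex is not given for single libraries and was not analysed here, and the libraries of a group are separate mice.

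In excitatory synapses the Dlg proteins bind the tails of NMDA receptors and, through auxiliary subunits, hold AMPA receptors in place. Dlgap1 links them to Shank proteins, which in turn bind Homer proteins and the actin of the spine. Homer1 connects this lattice to group I metabotropic glutamate receptors and to the inositol trisphosphate receptor. A short form of Homer1, transcribed when neurons fire strongly, lacks the part that joins Homer molecules and competes with the long forms. The granule cells of the dentate gyrus send their axons, the mossy fibres, to CA3. Bulk libraries do not show which cells express these genes.

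All members lie on the plus strand of the GRCm39 genome. The Dlg genes lie at chr16:31482187-31693947 (Dlg1), chr7:90125880-92098455 (Dlg2), chrX:99810768-99862016 (Dlg3) and chr11:69907768-69938348 (Dlg4). The Shank genes lie at chr7:43959615-44009996 (Shank1), chr7:143532669-143979779 (Shank2) and chr15:89383826-89444464 (Shank3). Homer1 lies at chr13:93436143-93541637 and Dlgap1 at chr17:70275873-71128409. The counts are sums over all annotated exons of a gene, so they do not separate its isoforms, of which the annotation lists between 6 (Shank1) and 55 (Dlg1).

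Library totals ran from 17762656 to 25712975 counts (median 22108562), and the lowest count of any member in any library was 966, for Homer1. Levels are given as CPM, counts scaled to a common library total with TMM factors. Markers of granule cells were present throughout, with summed levels of 10 genes between 313 and 1530 CPM. In the EZ at day 3 this sum was lower in kainate than in saline mice without overlap (715 to 976 against 1093 to 1353 CPM). The same held in the PIZ at day 7 (492 to 1067 against 1187 to 1461 CPM). In the EZ at day 7 the ranges overlapped (313 to 1274 against 944 to 1465 CPM). Markers of CA1 (5 genes) and of CA3 and mossy cells (6 genes) were also present in every group, so the dissected tissue held other hippocampal cells. Their sums were lower in the kainate EZ than in the saline EZ without overlap at day 3 (CA1 58.7 to 171 against 245 to 472 CPM, CA3 and mossy cells 132 to 157 against 264 to 418 CPM) and at day 7 (57.5 to 155 against 220 to 525 CPM, and 110 to 188 against 251 to 426 CPM). In the PIZ at day 3 the CA1 sum was 114 to 252 CPM in kainate and 278 to 525 CPM in saline mice. The part of these cells in the values of the members was not tested. The 10 microglia markers summed to 386 to 1184 CPM in the 24 saline libraries and to 452 to 9810 CPM in the 24 kainate libraries, and 14 pan-neuronal genes to 7462 to 10511 and 2723 to 10149 CPM. No gene of these 5 lists was at 0 in all libraries of a group. In bulk tissue, fewer cells of a type and less RNA per cell cannot be told apart. A gene was called when its adjusted p (edgeR quasi-likelihood test, Benjamini-Hochberg over all tested genes) was under 0.01 and its fold change over 1.5.

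In saline mice the members differed in level by close to an order of magnitude per length. Over the 24 saline libraries, in CPM per kilobase of merged exons (RPKM), the mean level was 56.4 ± 2.99 (SD) for Dlg4, 45.7 ± 3.52 for Dlg3, 36.1 ± 4.21 for Shank1, 32.8 ± 1.76 for Dlgap1 and 26.9 ± 2.75 for Shank3. It was 20.1 ± 1.54 RPKM for Dlg2, 11.9 ± 0.690 for Shank2, 8.04 ± 1.73 for Homer1 and 6.06 ± 0.310 for Dlg1. Each gene exceeded the next in this order in at least 23 of 24 libraries, except that Shank1 exceeded Dlgap1 in 19. Homer1 had the widest spread between saline libraries, with a coefficient of variation of 21.5%, and Dlg1 the narrowest, with 5.12%. No member was called between the saline EZ, the injected side, and the saline PIZ by the edgeR test. None was called at day 3, day 7 or day 14, where 0.0281%, 0% and 0% of all genes were called, none had an unadjusted p under 0.05, and DESeq2, limma and the fits with mouse as a block called none either. Dlg2 was lower in the EZ than in the PIZ of the same animal in 11 of 12 saline mice, and at day 3 its 4 saline EZ libraries (321 to 354 CPM) lay below its 4 saline PIZ libraries (366 to 413 CPM), as in 2.73% of all genes.

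**Figure D1:**
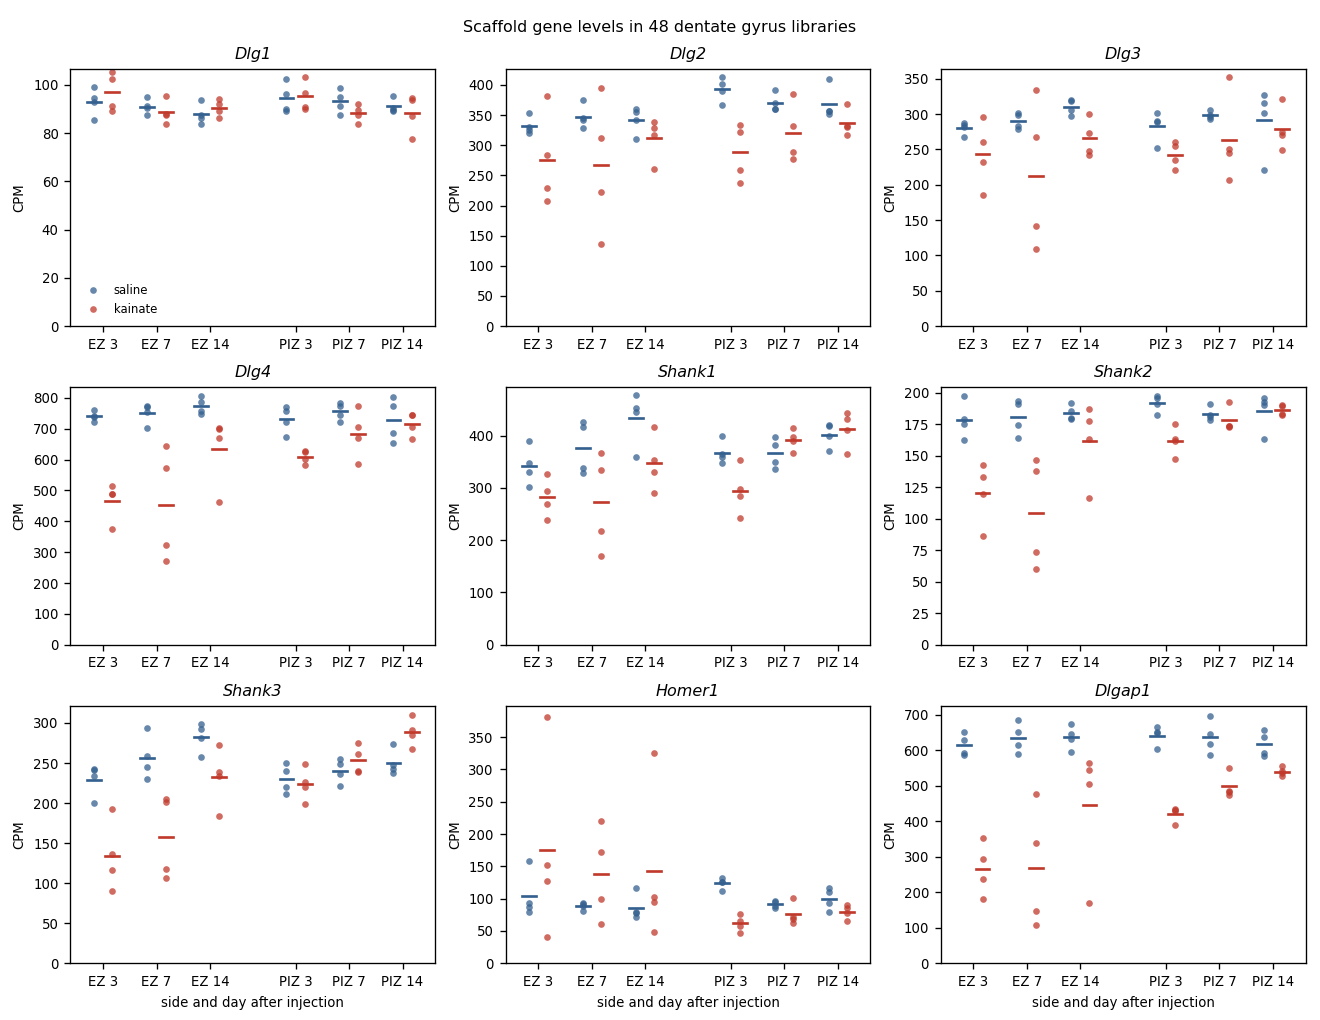
Level of each scaffold gene (CPM, y axis from 0) in each of the 48 libraries, by side and day on the x axis, with saline in blue, kainate in red and bars at the mean of 4 libraries. Dlg1 stays between 77.7 and 105 CPM in all libraries, the EZ kainate libraries of Dlg4, Shank2, Shank3 and Dlgap1 lie below saline at days 3 and 7, and Homer1 spreads from 40.7 to 381 CPM in the EZ kainate libraries of day 3.

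At day 3 the EZ of kainate mice had lower levels of Dlg4, Shank3 and Dlgap1, whose products stand at the successive layers of the density. These 3 members of 9 fell and none rose, where 8.61% of all genes fell by the same rule. A further member, Shank2, passed the test at a fold change just under 1.5, which makes 4 of 9 at any fold change, where 14.7% of all genes fell. In the same 4 members all kainate libraries lay below all saline libraries, as in 18.5% of all genes. The median log2 fold change of the 9 members was -0.28, beside 0.03 over all genes.

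Dlgap1, the linker between Dlg and Shank proteins, stood at 236, 182, 294 and 353 CPM in the 4 kainate libraries and at 628, 587, 652 and 593 CPM in the 4 saline libraries. No kainate library came near the saline range. Its log2 fold change was -1.21 (SE 0.26, 2.31-fold lower, edgeR adjusted p = 0.000278). Dlg4, which encodes the most abundant scaffold of the density, stood at 489, 375, 489 and 516 CPM against 760, 722, 743 and 738 CPM. The groups did not overlap, and the log2 fold change was -0.67 (SE 0.15, 1.59-fold lower, edgeR adjusted p = 0.000448).

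Shank3, a master scaffold whose loss causes an autism-linked syndrome in humans, stood at 136, 89.6, 117 and 192 CPM in the kainate EZ and at 241, 200, 234 and 242 CPM in the saline EZ. The highest kainate library came close to the lowest saline library without reaching it. The log2 fold change was -0.78 (SE 0.16, edgeR adjusted p = 0.000127). Shank2 stood at 142, 86.2, 119 and 133 CPM against 175, 163, 197 and 179 CPM, with a log2 fold change of -0.57 (SE 0.16, edgeR adjusted p = 0.00365). Mouse 38 was the lowest of the 4 kainate mice in all of Dlg4, Shank2, Shank3 and Dlgap1, and it also had the highest microglia sum (3565 CPM, the others 1950 to 2766) and the lowest pan-neuronal sum (3648 CPM, the others 4931 to 6238) of its group. The part of cell composition in these values was not tested. Without mouse 38 the log2 value of Dlg4 was -0.57, under a fold change of 1.5, and 2 members, Shank3 and Dlgap1, were called. With the spread taken from the 24 EZ libraries alone, Shank3 was the only member called. For these 2 fits the share of all genes called is not reported here.

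Shank1, Dlg2 and Dlg3 had log2 fold changes of -0.28 (SE 0.15), -0.27 (SE 0.17) and -0.20 (SE 0.19) at day 3 and did not pass. Dlg1, which encodes a guanylate kinase found along axons and dendrites as well as at synapses and in many other cell types, had 102, 105, 89 and 91.1 CPM in the kainate EZ and 85.6, 99.0, 93.0 and 94.7 CPM in the saline EZ. Its log2 fold change was 0.06, with a 95% interval from -0.07 to 0.18, so a change of the size seen for Dlg4 lies outside the interval. Its log2 fold change lay between -0.08 and 0.06 in all 6 comparisons of kainate with saline.

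At day 7 the EZ held the lowest single values of Dlg4 (273 CPM), Shank2 (59.8 CPM) and Dlgap1 (109 CPM) among the 48 libraries. Dlg4, Shank2, Shank3 and Dlgap1 fell, 4 of 9 members, and none rose, where 11.9% of all genes fell. At any fold change Shank1 joined them, 5 of 9, where 19.7% of all genes fell. The kainate and saline libraries did not overlap in 4 members, as in 20.1% of all genes. The median of the 9 log2 fold changes was -0.47, beside 0.01 over all genes.

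Dlgap1 stood at 147, 477, 339 and 109 CPM in kainate mice 21, 23, 26 and 35 and at 685, 588, 652 and 615 CPM in saline mice. The log2 fold change was -1.24 (SE 0.26, 2.37-fold lower, edgeR adjusted p = 0.000134). Dlg4 stood at 273, 644, 572 and 322 CPM in the same kainate mice and at 776, 755, 772 and 702 CPM in saline mice, a log2 fold change of -0.73 (SE 0.15, edgeR adjusted p = 0.000102). In both genes mice 21 and 35 were far below mice 23 and 26, which were themselves below every saline mouse.

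Shank2 had the same split, with 59.8 and 73.6 CPM in mice 21 and 35 and 147 and 138 CPM in mice 23 and 26, against 164 to 193 CPM in saline mice. Its log2 fold change was -0.79 (SE 0.16, edgeR adjusted p = 8.49e-05). Shank3 stood at 106 and 118 CPM in mice 21 and 35, at 201 and 205 CPM in mice 23 and 26 and at 230 to 294 CPM in saline mice, with a log2 fold change of -0.70 (SE 0.16, edgeR adjusted p = 0.00027). Shank1 had a log2 fold change of -0.47 (SE 0.15, edgeR adjusted p = 0.00699), Dlg3 of -0.45 (SE 0.19, edgeR adjusted p = 0.0381) and Dlg2 of -0.38 (SE 0.17, edgeR adjusted p = 0.0565). Dlg1 stood at 87.4, 95.5, 83.8 and 87.7 CPM in these 4 kainate mice, so the split of the day 7 mice was not seen in that gene.

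Mice 21 and 35 had microglia sums of 9810 and 6928 CPM in the EZ, against 2624 and 3632 CPM in mice 23 and 26, and pan-neuronal sums of 2723 and 2907 CPM, against 6322 and 5762 CPM. With both mice left out, an alternative added after the data were seen, no member was called at day 7, where 13% of all genes were called in either direction. The log2 fold changes were then -0.30 (SE 0.12, edgeR adjusted p = 0.0491) for Dlg4, -0.34 (SE 0.13, edgeR adjusted p = 0.0506) for Shank2, -0.34 (SE 0.16, edgeR adjusted p = 0.124) for Shank3 and -0.64 (SE 0.24, edgeR adjusted p = 0.0453) for Dlgap1, while Dlg2 was 0.03 and Dlg3 0.05. With mouse 21 alone left out, 2 members were called, Shank2 and Dlgap1. With the spread estimated from the 8 libraries of this comparison alone, none of the 4 was called. The share of all genes called in these last 2 fits is not reported here. Of the 14 pan-neuronal genes, 7 fell and 1, the neurofilament gene Nefm, rose at day 3 (1.01, SE 0.22), and 9 fell at day 7, with median log2 fold changes of -0.61 and -0.80, where 8.61% and 11.9% of all genes fell.

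Scaling the counts to those 14 pan-neuronal genes in place of all genes moved the EZ median log2 fold change of all genes to 0.74 at day 3 and 1.14 at day 7. The 14 genes were not uniform. On their own scale 3 were called as higher and 4 as lower at day 3, beside 49.4% and 2.09% of all genes. At day 7 these were 2 and 3, beside 70.7% and 1.22% of all genes. The SEs on that scale take the scale as fixed. On that scale Dlg4 was at 0.02 (SE 0.13) at day 3 and 0.23 (SE 0.13) at day 7, and Shank2 and Shank3 were at 0.17 (SE 0.10) and 0.29 (SE 0.12) at day 7, all above 0 and not called. Shank3 was at -0.14 (SE 0.12) and Shank2 at 0.09 (SE 0.10) at day 3. Dlg2, Dlg3 and Shank1 also turned to values above 0 at both days, of 0.42 to 0.60. Dlgap1 stayed below 0 on that scale, at -0.55 (SE 0.16, edgeR adjusted p = 0.0034) at day 3, where it did not reach a fold change of 1.5, and at -0.38 (SE 0.16, edgeR adjusted p = 0.0299) at day 7. Dlg1 turned to 1.10 (SE 0.20) and Dlg2 to 0.60 (SE 0.17) at day 7, both called as higher, as were 70.7% of all genes on that scale. All of these values but those of Homer1 and of Dlg1 at day 3 lay below the moved median. Homer1 was called as higher on that scale, at 1.42 (SE 0.46, edgeR adjusted p = 0.00644) at day 3 and 1.73 (SE 0.46, edgeR adjusted p = 0.000819) at day 7, as was Dlg1 at day 3, at 0.78 (SE 0.20, edgeR adjusted p = 0.000992), where 49.4% and 70.7% of all genes were called as higher at days 3 and 7.

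**Figure D2:**
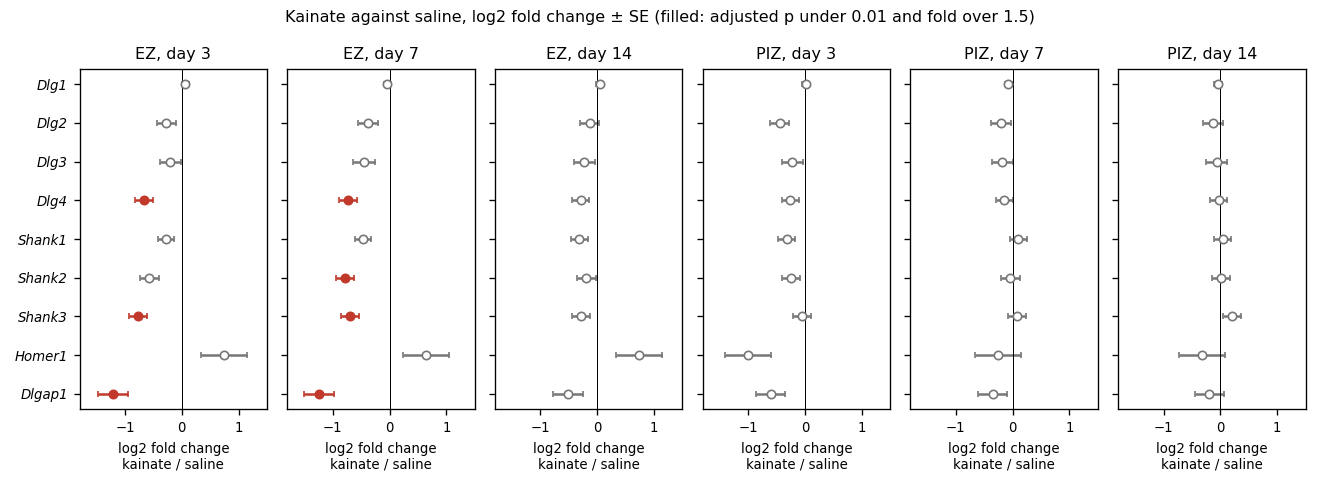
Log2 fold change of kainate over saline (x axis) with its SE for each scaffold gene (y axis), in a panel for each side and day, with called genes filled in red. Dlgap1 is at -1.21 and -1.24 in the EZ at days 3 and 7. On a scale set by pan-neuronal genes, which is not drawn, Dlg4 turns to 0.02 and Shank2 to 0.09 at day 3. On that same undrawn scale Dlg4, Shank2 and Shank3 turn to 0.23, 0.17 and 0.29 at day 7.

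**Figure D3:**
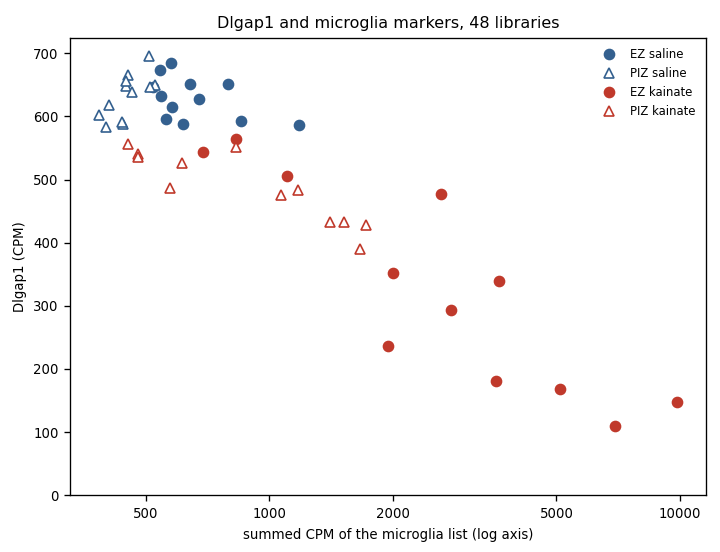
Dlgap1 level (CPM, y axis from 0) against the summed level of 10 microglia markers (CPM, log x axis) in the 48 libraries, with circles for EZ, triangles for PIZ, blue for saline and red for kainate. The lowest Dlgap1 values, 109 to 182 CPM, are in EZ kainate libraries with microglia sums of 3565 to 9810 CPM.

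At day 14 no member was called in the EZ by edgeR, DESeq2 or limma, where 2.36% of all genes were called, and 1 member, Shank1, had an unadjusted p under 0.05, as had 18% of all genes. Of the genes called in this comparison 496 were higher and 8 lower. The median of the 9 log2 fold changes was -0.23, beside 0.00 over all genes. Dlg4 and Dlgap1 lay below saline without overlap, 2 of 9 members, as did 3.42% of all genes. Dlgap1 stood at 565, 169, 544 and 506 CPM in kainate mice 14, 27, 36 and 40 and at 632, 596, 646 and 674 CPM in saline mice, with a log2 fold change of -0.52 (SE 0.26, edgeR adjusted p = 0.291). Mouse 27 stood apart, with the lowest Dlg4 (463 CPM, the others 672 to 702) and Shank2 (117 CPM, the others 164 to 187) as well. It had a microglia sum of 5114 CPM, against 689 to 1106 CPM in the other 3 mice. Without mouse 27 the log2 fold change of Dlgap1 was -0.24.

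In the PIZ of kainate mice no member was called at any day by edgeR over all 48 libraries. At day 3, 8.69% of all genes were called, and 4 members had an unadjusted p under 0.05 (Dlg2, Shank1, Homer1 and Dlgap1), as had 35.7% of all genes. At day 7 and day 14, 0.201% and 0.014% of all genes were called and no member had such a p, as 14.5% and 5.97% of all genes had. DESeq2 called none at any of these days, and limma none at days 7 and 14. At day 3, 5 of 9 members, Dlg2, Dlg4, Shank2, Homer1 and Dlgap1, had all 4 kainate libraries below all 4 saline libraries, as had 13.6% of all genes. At day 7 and day 14 this was so in 1 of 9 members, Dlgap1, beside 5.26% and 3.47% of all genes.

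The count of members called in the PIZ at day 3 differed between fits, and the cause was not tested. In the test above the spread was estimated from all 12 groups together. Fitted on the 24 PIZ libraries alone, Homer1 and Dlgap1 fell, 2 of 9 members, with edgeR adjusted p-values of 1.44e-05 and 2.21e-07, where 12.3% of all genes were called in either direction. In the test over all 48 libraries, 1523 of the genes called in this comparison were higher and 335 lower. Homer1 and Dlgap1 were also called by limma with quality weights and by edgeR on the 8 libraries of the comparison. For the latter 2 fits the share of all genes called is not reported here. Dlgap1 stood at 390, 433, 429 and 433 CPM in the kainate PIZ and at 602, 650, 648 and 666 CPM in the saline PIZ at day 3, a log2 fold change of -0.61 (SE 0.26 with the pooled spread, edgeR adjusted p = 0.0869). No kainate library came near the saline range. At day 7 the log2 fold change of Dlgap1 in the PIZ was -0.35 (SE 0.26) and at day 14 it was -0.19 (SE 0.26), with kainate libraries at 527 to 556 CPM and saline libraries at 583 to 656 CPM at day 14. Dlgap1 was thus below saline without overlap in all 6 comparisons, as were 0.238% of all genes.

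Shank3 had values close to saline in the PIZ. At day 3 it stood at 199, 226, 248 and 220 CPM in kainate mice and at 220, 211, 240 and 250 CPM in saline mice, a log2 fold change of -0.05 with a 95% interval from -0.35 to 0.26. At day 14 the log2 fold change was 0.20 (SE 0.16, edgeR adjusted p = 0.965). Microglia markers in the kainate PIZ at day 3 summed to 1403 to 1723 CPM, against 386 to 526 CPM in saline, and pan-neuronal genes to 7409 to 7957 CPM, against 8021 to 10511 CPM.

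Homer1 had log2 fold changes above 0 at all 3 days in the EZ and below 0 at all 3 days in the PIZ, none of which passed the test over all 48 libraries with TMM scaling, and the widest spread of the members. In the EZ at day 3 it stood at 381, 152, 128 and 40.7 CPM in kainate mice 30, 38, 42 and 44 and at 79.6, 92.9, 159 and 87.5 CPM in saline mice. A single kainate library was above and another below the whole saline range, and the log2 fold change of 0.75 (SE 0.40, edgeR adjusted p = 0.127) did not pass. Without mouse 30 it was 0.03. In the PIZ of the same 4 mice it stood at 65.8, 76.1, 58.0 and 47.0 CPM, against 111, 126, 131 and 127 CPM in saline mice, a log2 fold change of -1.0 (SE 0.41, 2.01-fold lower, adjusted p = 0.0696). Here all kainate libraries were below all saline libraries. Within each mouse, the EZ level exceeded the PIZ level by 2.53, 1.0 and 1.14 on the log2 scale in mice 30, 38 and 42 and was below it by 0.21 in mouse 44, beside -0.53 to 0.27 in the 4 saline mice. The difference of the kainate effect between the sides was 1.75 (SE 0.57, edgeR adjusted p = 0.111).

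At day 7 Homer1 stood at 60.6, 98.7, 220 and 173 CPM in EZ kainate mice 21, 23, 26 and 35 and at 80.5 to 92.7 CPM in saline mice, a log2 fold change of 0.64 (SE 0.41), which was 0.33 without mouse 26. At day 14 it stood at 95.2, 326, 103 and 48.1 CPM in mice 14, 27, 36 and 40 and at 71.4 to 116 CPM in saline mice, a log2 fold change of 0.73 (SE 0.41), which was -0.07 without mouse 27. At each of the 3 days the kainate mice lay both above and below the saline range, and Homer1 was not called with TMM scaling, though on the pan-neuronal scale it was called as higher at days 3 and 7 with 49.4% and 70.7% of all genes.

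The Homer1 level was set beside that of genes induced by neuronal firing, which it followed in some libraries and not in others. The 11 activity-regulated genes (among them Bdnf and Egr3, the most abundant, and Nptx2 and Junb, with the smallest p) summed to 2351, 1636, 1459 and 462 CPM in EZ kainate mice 30, 38, 42 and 44 at day 3, the same order as Homer1. Of these 11 genes 9 rose in the EZ at day 3 and 9 at day 7, with a median log2 fold change of 1.94 and 2.00, where 16.1% and 20.6% of all genes rose. At day 14 mouse 27 had a sum of 1353 CPM, against 369 to 448 CPM in the other 3. Once group means were removed, the correlation of Homer1 with the mean log2 level of the list was 0.71 over the 48 libraries, which share mice and depth, and for the other 8 members it ran from -0.44 (Dlgap1) to 0.26 (Dlg2). Mouse 35 at day 7 had the second highest sum of all libraries (1687 CPM) and a Homer1 level of 173 CPM, below mouse 26 (1120 CPM and 220 CPM). Mouse 23, with a sum of 1113 CPM, had 98.7 CPM of Homer1, and mouse 21, with 718 CPM against 318 to 389 CPM in saline mice, had 60.6 CPM, below every saline mouse. In the PIZ at day 3, where all kainate mice had less Homer1 than saline mice, the sums were 363 to 550 CPM in kainate and 279 to 450 CPM in saline mice.

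**Figure D4:**
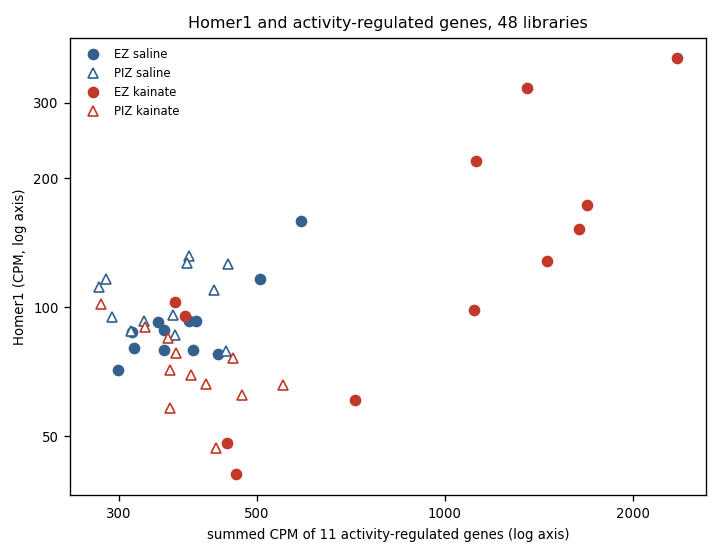
Homer1 level (CPM, log y axis) against the summed level of 11 activity-regulated genes (CPM, log x axis) in the 48 libraries, with symbols for side and colours for treatment. The 3 highest Homer1 values, 220 to 381 CPM, are EZ kainate libraries with sums of 1120 to 2351 CPM, while EZ kainate mice 44 and 40 hold the lowest EZ values at sums of 462 and 448 CPM.

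The promoter of Homer1 is shown because it holds letters found in the control regions of firing-induced genes. The core of the cAMP response element, TGACGT or ACGTCA on the other strand, was searched in the 250 bases before each start in the RefSeq promoter table (GRCm38.p6), which held 7 of the 9 members and lacked Shank1 and Shank2. At 1 of its 2 listed starts Homer1 held 3 copies, given below with the core in capitals and 8 bases on either side.

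Homer1, 56 bases before the start, chr13:93303693-93303714, plus strand: gcacaagcTGACGTgagcggag
Homer1, 40 bases before the start, chr13:93303709-93303730, plus strand: gcggagggTGACGTatgtgcgg
Homer1, 14 bases before the start, chr13:93303735-93303756, plus strand: gagcgcgcTGACGTtgctattt

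Among the 32851 starts searched, 6.47% held at least 1 copy and 0.152% held 3 or more. None of the other 6 members in the table held a copy in this window, while 4 of the 7 activity-regulated genes in the table did, Npas4 and Egr4 with 2 copies at a start and Fos and Bdnf with 1. A match of letters is a description of the sequence and says nothing of a factor bound there.

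The difference of the kainate effect between EZ and PIZ was tested in each gene. At day 3 no member was called, where 0.0655% of all genes were called, and 2 members, Shank3 and Homer1, had an unadjusted p under 0.05, as had 17.9% of all genes. At day 7 no member was called, where 9.89% of all genes were called, and 5 members had an unadjusted p under 0.05, as had 40.2% of all genes. Of these, Shank3 differed by -0.78 (SE 0.22, edgeR adjusted p = 0.0101), Shank2 by -0.75 (SE 0.23, edgeR adjusted p = 0.0146), Dlg4 by -0.59 (SE 0.21, edgeR adjusted p = 0.0382), Shank1 by -0.56 (SE 0.21, edgeR adjusted p = 0.0413) and Dlgap1 by -0.89 (SE 0.37, edgeR adjusted p = 0.0668). With mouse as a replicate block, which uses that both sides come from the same animals, the share of all genes called is not reported here. Shank3 was called in both blocked fits, with adjusted p-values of 0.0041 (limma, random effect) and 0.0079 (edgeR, fixed term), and Shank2 in the first. DESeq2 called the same 2 members, where it called 13.6% of all genes, and limma with quality weights 6, where it called 24% of all genes. Without mice 21 and 35 the difference of Shank3 was -0.43 (adjusted p = 0.428). On the pan-neuronal scale Shank3 and Shank2 turned to 0.23 (SE 0.18) and 0.24 (SE 0.15), not called, and Dlg1 (1.21, SE 0.28), Dlg2 (0.86, SE 0.24) and Homer1 (2.04, SE 0.64) were called as higher, where 60.4% of all genes were called in either direction. At day 14 no member was called, where 0% of all genes were, and 1 member, Shank3, had an unadjusted p under 0.05, as had 7.3% of all genes.

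The change of the kainate effect with time was not called in any member. In the EZ 0.145% of all genes were called for the step between days 3 and 7 and 0.271% for the step between days 7 and 14. The same steps gave 0.0234% and 0% of all genes in the PIZ. From day 7 to day 14 in the EZ the differences of all 9 members were above 0, with a median of 0.25, where 48.9% of all genes were above 0 with a median of -0.01. An unadjusted p under 0.05 was found for 2 of the 9 members and for 33.1% of all genes. The 2 members were Shank2, at 0.60 (SE 0.23, edgeR adjusted p = 0.0645), and Dlg4, at 0.44 (SE 0.21, edgeR adjusted p = 0.143). The other steps, where 12% (EZ) and 10.6% and 3.08% (PIZ) of all genes had an unadjusted p under 0.05, had no such member. DESeq2 called none at any step, and limma with quality weights called 2 and 5 members at the 2 steps in the EZ, where it called 5.73% and 29.5% of all genes.

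Within groups, most members moved together from mouse to mouse. After removal of group means, Dlg4 had correlations of 0.88 with Dlgap1, 0.87 with Shank2, 0.87 with Dlg3 and 0.81 with Shank3 over the 48 libraries. Dlg1 and Homer1 stood outside this group, with correlations of -0.10 and -0.16 with Dlg4. Homer1 had -0.38 with Dlgap1 and 0.56 with Dlg2. The residual SD on the log2 scale was 0.60 for Homer1, above that of 98.7% of the tested genes nearest in level, 0.40 for Dlgap1 (90.8%) and 0.08 for Dlg1 (8.49%). The correlations are across libraries that share mice and tissue makeup. With the mean log2 level of the pan-neuronal list, Shank2 and Dlgap1 had residual correlations of 0.87 and 0.84, and with that of the microglia list -0.78 and -0.81.

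**Figure D5:**
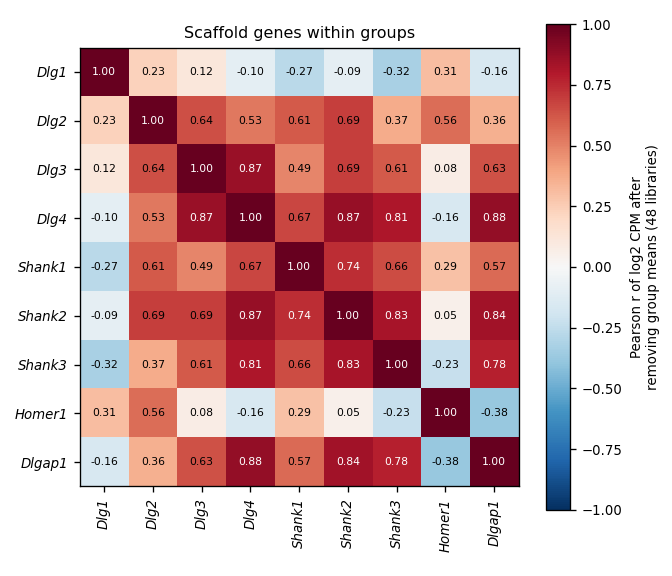
Pearson correlation of log2 CPM between scaffold genes after removal of the 12 group means, over 48 libraries, from -1 (blue) to 1 (red). Dlg3, Dlg4, the Shank genes and Dlgap1 form a block of values from 0.49 to 0.88, with Dlg1 and Homer1 outside it.

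The genes whose level was most like that of a member over the 48 libraries were, for Dlgap1, the AMPA receptor subunit gene Gria1 (r = 0.99) and the kinase gene Ptk2b (r = 0.99). For Dlg4 they were the muscarinic receptor gene Chrm1 (r = 0.98) and Camk2b (r = 0.97), and for Shank3 Scrt1 and Brsk1 (both r = 0.96). Dlg3 was nearest to Septin5 and Sphkap (both r = 0.93) and Dlg2 to Mllt11 (r = 0.92) and Slc25a46 (r = 0.91). Homer1 was nearest to Pcsk1, a prohormone convertase, and Acsl4 (r = 0.87 for each), and Dlg1 had no close neighbour, with r = 0.68 for both Vps37a and Trip11. For Shank2 the nearest were 2 protocadherin genes that share exons (both r = 0.97).

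The receptors that these scaffolds hold changed in the same direction as the called members. In the EZ, 7 of 10 genes of anchored receptors fell at day 3 and all 10 at day 7, with medians of -1.02 and -1.21, where 8.61% and 11.9% of all genes fell. On the pan-neuronal scale 1 of the 10, Itpr1, stayed called as lower at each day, where 2.09% and 1.22% of all genes were, and the medians of the list were -0.36 and -0.33. Gria1 and Gria2, the most abundant, had log2 fold changes of -1.23 (SE 0.29) and -0.96 (SE 0.17) at day 3. Itpr1, the inositol trisphosphate receptor bound by Homer proteins, had -1.83 (SE 0.29, edgeR adjusted p = 4.52e-06) in the EZ and -1.26 (SE 0.29, edgeR adjusted p = 0.00139) in the PIZ at day 3. In the PIZ at day 3, 3 of the 10 fell, Itpr1, Gria2 and Gria3, where 1.57% of all genes fell.

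Other scaffold and adaptor genes also fell in part. In the EZ, 13 of 30 fell at day 3 and 15 at day 7 and none rose, with medians of -0.55 and -0.67, beside the same 8.61% and 11.9% of all genes. On the pan-neuronal scale 5 were called as lower and 5 as higher at day 3, and 3 and 10 at day 7. Of all genes 2.09% were called as lower and 49.4% as higher at day 3, and 1.22% and 70.7% at day 7. The medians of the list turned to 0.13 and 0.38, beside 0.74 and 1.14 over all genes. Cnksr2, a Ras pathway scaffold, had -1.55 (SE 0.31) and -1.57 (SE 0.31), and Frmpd4, which binds Dlg4 and Homer proteins, -1.74 (SE 0.18) and -1.48 (SE 0.18). In the PIZ at day 3 Frmpd4 was the only one of the 30 called, where 1.57% of all genes fell, at -0.71 (SE 0.18, edgeR adjusted p = 0.00294). The paralogs Homer2 and Homer3, named here after their values were seen, had -1.86 (SE 0.37, edgeR adjusted p = 7.74e-05) and -1.22 (SE 0.29, edgeR adjusted p = 0.000636) at day 3, while Homer1 had 0.75 (SE 0.40).

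The counts that follow are for the EZ and stand beside 8.61% of all genes that fell at day 3 and 11.9% at day 7. Of 13 postsynaptic signaling enzymes 4 fell at day 3 and 9 at day 7 (medians -0.53 and -0.72), with Camk2a, the most abundant kinase of the density, at -1.48 (SE 0.27) and -1.17 (SE 0.27). Of 11 regulators of spine actin 6 and 8 fell (medians -0.68 and -0.74), with Cyfip2 at -1.14 (SE 0.19) and -1.19 (SE 0.19). Of 20 adhesion molecules and auxiliary subunits 9 fell at each day (medians -0.61 and -0.66), with Erbb4, a receptor kinase of interneurons, at -2.24 (SE 0.29) at day 3. Of 6 genes of the inhibitory postsynapse 2 fell at each day (medians -0.45 and -0.52). Gphn, the scaffold of inhibitory synapses, had -0.49 (SE 0.09, edgeR adjusted p = 5.84e-05) at day 3, under a fold change of 1.5. Of 7 enzymes that add or remove palmitate, the lipid that anchors Dlg4, none was called at day 3 and 1, Zdhhc17, fell at day 7, at -0.71 (SE 0.12), a share of the list close to that of all genes. No gene of these 5 lists, of the anchored receptors or of the other scaffolds was called in the EZ at day 14, where 2.36% of all genes were. On the pan-neuronal scale the medians of these 5 lists were above 0 at both days, except that of the actin regulators at day 3 (-0.02). They stood beside medians of 0.74 and 1.14 over all genes. On that scale 1 enzyme and 1 adhesion gene were called as lower at each day, and 2 and 1 actin regulators at days 3 and 7. No gene of the inhibitory postsynapse or of the palmitate enzymes was, beside 2.09% and 1.22% of all genes. Called as higher at days 3 and 7 were 2 and 3 enzymes, 2 and 2 actin regulators and 4 and 5 adhesion genes. So were 2 and 2 genes of the inhibitory postsynapse and 3 and 6 palmitate enzymes, beside 49.4% and 70.7% of all genes.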

How the data were processed

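Gene counts of 48 libraries were used as deposited. The authors trimmed reads with fastp 0.20.1, aligned them to GRCm39 with HISAT2 2.2.1 and counted reads per gene with featureCounts (Subread 1.6.4), per their processing notes. The deposited counts are raw. Authors' DESeq2 results were not used.

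Here counts were tested with edgeR 4.0.16 in R 4.3.3 (quasi-likelihood test, TMM factors, low-count filter, 12 group means over all 48 libraries). Genes were called past a fold change of 1.5 when the p adjusted by Benjamini-Hochberg was under 0.01. The standard error is the log2 fold change divided by the root of F, and intervals are 1.96 standard errors either way. RPKM used merged exon length. Scripts were tested on simulated data. DESeq2 1.42.0, limma 3.58.1, other scalings, filters, sample sets and thresholds, and the loss of each mouse in turn were tried.

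Replicate numbers in the titles are mouse numbers, so EZ and PIZ libraries with 1 number come from the same animal. Residuals of the 2 sides correlated at -0.05 to 0.38 (median 0.21) over the 24 mice, and mouse was used as a replicate block in alternative fits. Different mice share no number.

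The members and lists were chosen with earlier results of these data known. The text names the 9 members, of each other list at most the 2 most abundant genes and the 2 of lowest p in either EZ comparison of day 3 or 7, the 2 genes most correlated with each member (those of Shank1 are not reported here), and members of a count of 5 or fewer. Depth limits no member, since the lowest count was 966.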

Additional observations from a re-analysis of the deposited data

Results flagged for a closer look

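In 8 of 108 groups of 4 libraries (7.41%), each a member's values in 1 group, 1 library stood apart from the other 3 by Dixon's test, where chance gives about 1 in 20. In the EZ of kainate mice at day 14, mouse 27 had 463 CPM of Dlg4, with the others at 672 to 702 CPM, and 169 CPM of Dlgap1, with the others at 506 to 565 CPM. In the PIZ of kainate mice, Dlgap1 was low in mouse 30 at day 3 (390 CPM, the others 429 to 433) and high in mouse 23 at day 7 (551 CPM, the others 475 to 487), and Shank2 was high in mouse 21 at day 7 (192 CPM, the others 173 to 174). Among saline libraries, Homer1 was high in the EZ of mouse 37 at day 3 (159 CPM, the others 79.6 to 92.9), and in the PIZ at day 14 Dlg2 was high in mouse 39 (410 CPM, the others 351 to 357) and Shank2 low in mouse 24 (163 CPM, the others 190 to 196).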

How the results depend on the processing

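In the EZ at day 3, where 3 were called, 1 was called with EZ libraries only and 0 by glmTreat (a test against a fold change of 1.5). In the EZ at day 7, where 4 were called, 7 were called by limma with quality weights, 0 with the compared groups only, 0 by glmTreat and 0 without mice 21 and 35, and leaving out each mouse gave 2 (without mouse 21) to 6 (without mouse 23). In the PIZ at day 3 the count went from 0 to 2 by limma with quality weights, with the compared groups only and with PIZ libraries only. For the difference between EZ and PIZ at day 3, limma gave 2 and leaving out mice 0 to 1 (1 without mouse 44). At day 7, where none was called, DESeq2 gave 2, limma 6, RLE factors 1, library size only 2, pan-neuronal scaling 3 (Dlg1, Dlg2 and Homer1, all higher, where the others called lower values), a filter of 10 counts in every library 1 and a threshold of 0.05 gave 3. Leaving out mice there gave 0 to 4 (4 without mouse 23, 3 without mouse 26). With mouse as a replicate block the count was 2 as a random effect and 1 as a fixed term, and the block moved no other count by more than 1.5 times. For the EZ, limma gave 2 for day 7 minus day 3 and 5 for day 14 minus day 7, and leaving out mice gave 0 to 1 for the latter (1 without mouse 23). These are counts of members, and the share of all genes called is given above for only some of the settings. Where it is not, the count does not show whether the calls over all genes moved likewise. The causes were not tested.

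Pan-neuronal scaling turned the sign of 28 of 81 log2 values of members, 5 of 9 in the EZ at day 3 and 7 of 9 at day 7. Of these, 7 were called on 1 of the scales. They were Dlg4 in the EZ at day 3 (0.016), Dlg1 (1.10), Dlg2 (0.60), Dlg4 (0.23), Shank2 (0.17) and Shank3 (0.29) in the EZ at day 7, and Dlg2 in the difference between EZ and PIZ at day 7 (0.86). It moved the median of all genes by over 0.1, to 0.74, 1.14 and 0.25 on the EZ side at days 3, 7 and 14 and to 0.15 for PIZ at day 3. Library size only moved it to 0.16 for EZ and 0.11 for PIZ at day 3. Of all genes called in the EZ at days 3 and 7, 34.9% and 36.6% were lower, against 23.7% and 29.9% with library size only and 4.05% and 1.70% with pan-neuronal scaling.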
